A study of Mus musculus with 2 samples.

Results

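*Sparc*, *Sparcl1*, *Thbs2*, *Thbs4*, *Gpc4*, *Gpc6*, *Chrdl1*, *Megf10*, *Mertk* and *Gas6* encode proteins through which glia are known to build or to clear synapses. All 10 genes were found by their symbol, each in 1 row, among the 32285 genes counted in single cells of mouse striatum, the input nucleus of the basal ganglia. They were chosen by name, with earlier results of these data known. The libraries, replicates 1 and 2 of a single condition, came from untreated mice labelled as 8 to 10 weeks old and as strain C57/Bl6J, while the protocol text names C57BL/6NTac and the series' design text gives a narrower age range. The study's methods describe several male mice, at a stated age that lies partly below the labelled range, without saying how they were divided between libraries. The tissue was digested with pronase, passed through a fine filter and cleared of myelin debris, and the cells are labelled as enriched for glia, so neurons were sampled as a minority. Nothing in the sources used here says how many mice make up a library. P-values therefore rest on how differences between classes vary between these 2 libraries, a spread that may be technical. A difference shared by all classes of a library was taken out in the fit. The spread was estimated over all classes together and drew on the other genes.

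As background, synapses in the striatum form and mature under the influence of proteins that astrocytes secrete. Hevin, the product of *Sparcl1*, promotes excitatory synapses, and SPARC, its relative, is known to oppose it. Thrombospondins drive synapse formation through the calcium channel subunit α2δ-1, encoded by *Cacna2d1*. Glypicans 4 and 6 are heparan sulfate proteoglycans that recruit AMPA receptors, and chordin-like 1, a secreted BMP antagonist, drives the switch to mature AMPA receptors. On the clearing side, MEGF10 and MERTK are engulfment receptors. GAS6 is the ligand that bridges MERTK to phosphatidylserine on membranes to be engulfed.

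Library 1 held 6978 barcodes with 44597660 unique molecular identifiers (UMIs, counts of captured mRNA molecules) and library 2 held 5437 barcodes with 37982720 UMIs, with medians of 3852 and 5375 UMIs per barcode. After filters 12007 cells remained, and 9 barcode sequences occurred in both libraries. The cells were clustered without the 10 genes, without the related genes described below and without *Crym*, and clusters were named after marker genes, which gave 9 classes with enough cells in both libraries. The classes held 2290 astrocyte-like, 2218 oligodendrocyte-like, 2140 microglia-like, 1667 neuroblast-like, 1408 endothelial-like, 826 oligodendrocyte precursor (OPC)-like, 639 neuron-like, 553 mural-like and 169 macrophage-like cells. The neuroblast-like class also held cycling progenitors and ependymal-like cells, and the mural-like class, of pericytes and smooth muscle, also held fibroblasts. A finer clustering separated them into progenitor-like (453 cells), ependymal-like (147) and fibroblast-like (56) classes. It also changed the size of other classes. The OPC-like class then held 640 rather than 826 cells and the oligodendrocyte-like class 2404 rather than 2218. The astrocyte-like class held 2187 rather than 2290 cells and the neuron-like class 742 rather than 639. Values below are of the coarser classes unless the finer clustering is named. In these classes levels are in CPM, the UMIs of a gene as a share of all UMIs of a library and class, scaled to one fixed total with TMM factors. Values in a sentence are given for library 1 and then library 2, and intervals are exact Poisson intervals at 95%, which cover counting error only.

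The 10 genes differed in where they were highest, as the map of levels by cell class shows. Astrocyte-like cells had the highest mean level of 5 genes (*Sparcl1*, *Thbs4*, *Gpc6*, *Chrdl1* and *Megf10*), mural-like cells of *Thbs2* and *Gpc4*, microglia-like cells of *Sparc* and *Mertk*, and macrophage-like cells of *Gas6*. *Thbs2*, *Gpc4* and *Gas6* were thus highest in classes that are not glial. At the finer clustering *Thbs4* was highest in ependymal-like cells, and *Thbs2* and *Gpc4* in fibroblast-like cells. In plain CPM (no TMM factors) *Sparcl1* was then 6436 and 6786 in an *Acta2*-led mural cluster, against 3795 and 4581 in astrocyte-like cells. *Gpc6* was 140 and 167 in a *Vtn*-led mural cluster, against 82.2 and 69.3 in astrocyte-like cells. Against each of the other 8 classes in turn, members were higher in astrocyte-like cells in 58 of 80 tests and lower in 9 (edgeR quasi-likelihood test, adjusted p under 0.05). Against OPC-like cells 9 members were higher and 0 lower, where 20.9% and 24.3% of all 15534 genes tested were called in these directions. Against neuroblast-like (27.0% and 27.8% of all genes), neuron-like (27.1% and 23.2%) and oligodendrocyte-like cells (25.5% and 32.5%) 8 were higher and 0 lower. Against macrophage-like cells 8 were higher and 1 lower (21.3% and 21.5% of all genes), against endothelial-like cells 7 and 2 (25.8% and 29.4%), against microglia-like cells 6 and 2 (27.0% and 33.5%) and against mural-like cells 4 and 4 (23.5% and 26.6%). These 8 contrasts share the astrocyte-like sums. The lower calls include *Thbs2* against mural-like cells. *Thbs2* passed the filter on low counts only through its mural-like sums, so that call is no separate support. TMM scaling moved the log2 difference of astrocyte-like cells over another class by between -0.49 (oligodendrocyte-like) and 0.31 (OPC-like) for every gene. With library sizes alone, the share of calls that were higher in astrocyte-like cells went from 46.2% to 29.0% against OPC-like, from 44.6% to 59.8% against microglia-like, from 53.9% to 40.2% against neuron-like and from 44.0% to 65.7% against oligodendrocyte-like cells, while 57 of the 80 tests of members were higher. The highest class differed from the next one for 5 of 10 members, among them *Thbs2*, which passed the filter on low counts only through its highest class. Among all genes 24.8% were higher in microglia-like than in endothelial-like cells (*Sparc*), 11.8% in mural-like than in endothelial-like cells (*Thbs2*) and 6.42% in macrophage-like than in microglia-like cells (*Gas6*). Each member's pair and direction were taken from the order of its own levels in these data. The shares of all genes are for a fixed pair and direction, so they are not a like measure.

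**Figure D1:**
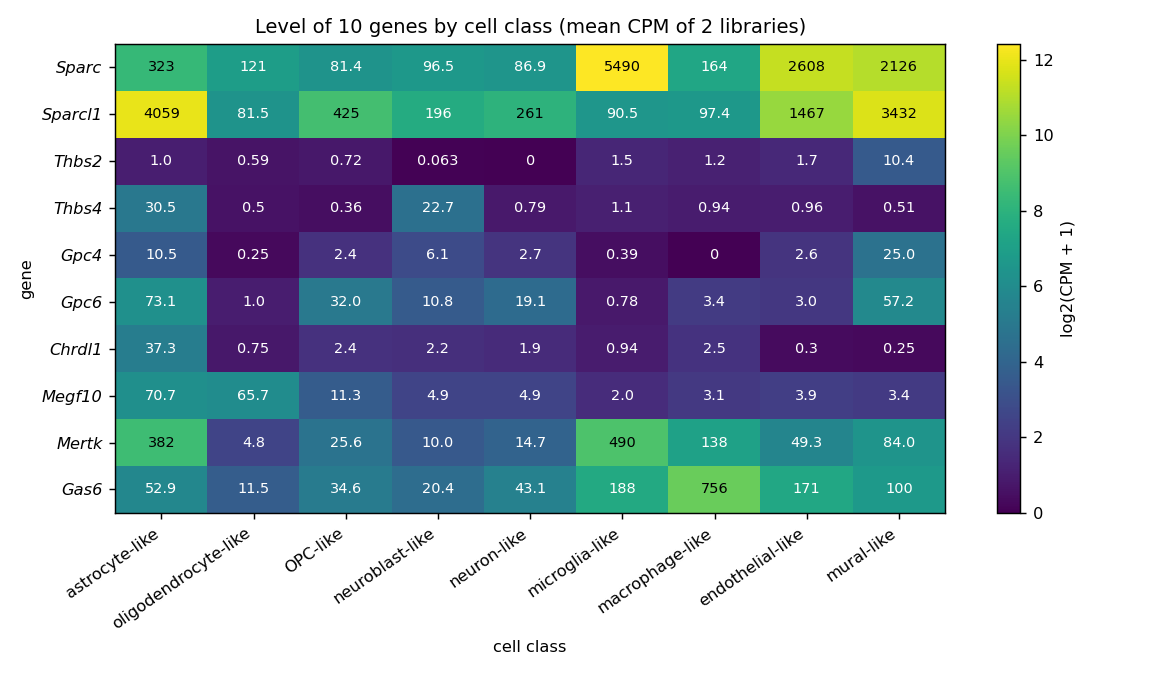
Mean level of each gene (rows) in each cell class (columns), in CPM over 2 libraries, printed in each cell and coloured on the log2(CPM + 1) scale. *Sparcl1* reaches 4059 CPM in astrocyte-like cells and 3432 CPM in mural-like cells, while *Sparc* reaches 5490 CPM in microglia-like cells.

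*Sparcl1* (ENSMUSG00000029309; GRCm38 chromosome 5, 104079111 to 104113733, minus strand) encodes hevin. Its level in astrocyte-like cells was 3620 CPM (interval 3564–3677) and 4498 CPM (4435–4562), a mean of 4059 ± 621 CPM (SD, n = 2 libraries). In mural-like cells it was 3387 CPM (3306–3469) and 3478 CPM (3390–3568). The mean was higher in astrocyte-like than in mural-like cells by 0.25 on the log2 scale (SE 0.29, adjusted p = 0.496), so these classes did not differ beyond the spread. Endothelial-like cells followed with 1414 and 1519 CPM, below mural-like cells by a log2 difference of 1.22 (SE 0.29, adjusted p = 0.0042). OPC-like cells had 412 and 438 CPM, and the other 5 classes lay between 59.8 and 369 CPM. The step from endothelial-like to OPC-like cells passed the test (log2 difference 1.79, adjusted p = 7.1e-05), whereas the steps from OPC-like to neuron-like and from neuron-like to neuroblast-like cells did not. *Sparcl1* was called higher in astrocyte-like cells than in 7 of 8 classes, the exception being mural-like cells.

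The *Sparcl1* level was not even across mural-like cells. The 8 endothelial markers summed to 5154 and 5964 CPM in mural-like cells, against 24057 and 27492 CPM in endothelial-like cells, and their part in the mural levels was not tested. At the finer clustering, on the scale of plain CPM without TMM factors, the cluster led by *Acta2*, *Tagln* and *Myh11*, genes of the contractile apparatus of smooth muscle, held 6436 and 6786 CPM of *Sparcl1*. The cluster led by *Vtn*, *Atp13a5* and *Kcnj8*, genes known from pericytes, held 2896 and 2573 CPM. A last, *Rgs5*-led mural cluster of 63 cells, also with *Vtn*, *Kcnj8* and *Atp13a5* among its leading genes, held 1845 and 2045 CPM. In droplet data, RNA released from broken cells gives UMIs in cells that do not make it, so the low levels of *Sparcl1* were set against the summed level of the 8 astrocyte markers in the same cells. The *Sparcl1* level was 19.1% and 21.3% of that sum in astrocyte-like cells. It was 14.2% and 14.8% in microglia-like, 15.1% and 14.5% in neuroblast-like, 18.3% and 15.6% in oligodendrocyte-like, 22.5% and 24.9% in neuron-like and 20.6% and 27.3% in macrophage-like cells. In OPC-like cells it was 50.2% and 63.3%, in endothelial-like cells 252% and 460% and in mural-like cells 493% and 638%. The ratio therefore lay near that of astrocyte-like cells in the 5 classes with the lowest *Sparcl1*, and the part of free RNA in those levels was not tested. With each cell thinned to 1000 UMIs, which left 967 of 1312 and 875 of 978 astrocyte-like and 1019 of 1117 and 967 of 1023 microglia-like cells, at least 1 *Sparcl1* UMI was found in 91.2% and 93.7% of astrocyte-like cells, 87.9% and 90.0% of mural-like cells and 9.52% and 5.89% of microglia-like cells. With all UMIs, at medians of 1742 and 2791 UMIs in astrocyte-like and 6930 and 5504 in microglia-like cells, the shares were 88.9% and 95.0% against 34.7% and 21.0%.

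*Sparc* (ENSMUSG00000018593; chromosome 11, 55394500 to 55423183, minus strand) encodes a secreted matrix protein that is known to counteract hevin. It was highest in microglia-like cells, with 6213 CPM (6147–6280) and 4766 CPM (4702–4832). Endothelial-like cells had 2913 CPM (2855–2972) and 2302 CPM (2243–2363), and mural-like cells 2365 CPM (2297–2434) and 1888 CPM (1823–1955). Both libraries of microglia-like cells lay above both libraries of every other class. The difference between microglia-like and endothelial-like cells was 1.07 on the log2 scale (SE 0.22, adjusted p = 5.9e-04). Endothelial-like and mural-like cells did not differ beyond the spread (0.29, SE 0.22, adjusted p = 0.372). Astrocyte-like cells had 292 CPM (276–309) and 354 CPM (336–372), which was 4.07 lower than microglia-like cells on the log2 scale (SE 0.25, adjusted p = 3.6e-10). The remaining classes lay between 56.9 and 186 CPM. Astrocyte-like cells were called higher than these 5 classes and lower than the microglia-like, endothelial-like and mural-like classes. Within astrocyte-like cells the *Sparc* level was 104% and 215% of the summed level of 8 microglia markers, against 17.5% and 12.7% in microglia-like cells. All 8 of those markers were above 0 in astrocyte-like cells, summing to 290 and 167 CPM against 27129 and 29734 CPM in microglia-like cells. Thinned to 1000 UMIs, 96.1% and 95.6% of microglia-like, 86.3% and 84.1% of endothelial-like and 23.4% and 23.0% of astrocyte-like cells had a *Sparc* UMI, against 9.60% and 7.55% of oligodendrocyte-like cells.

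**Figure D2:**
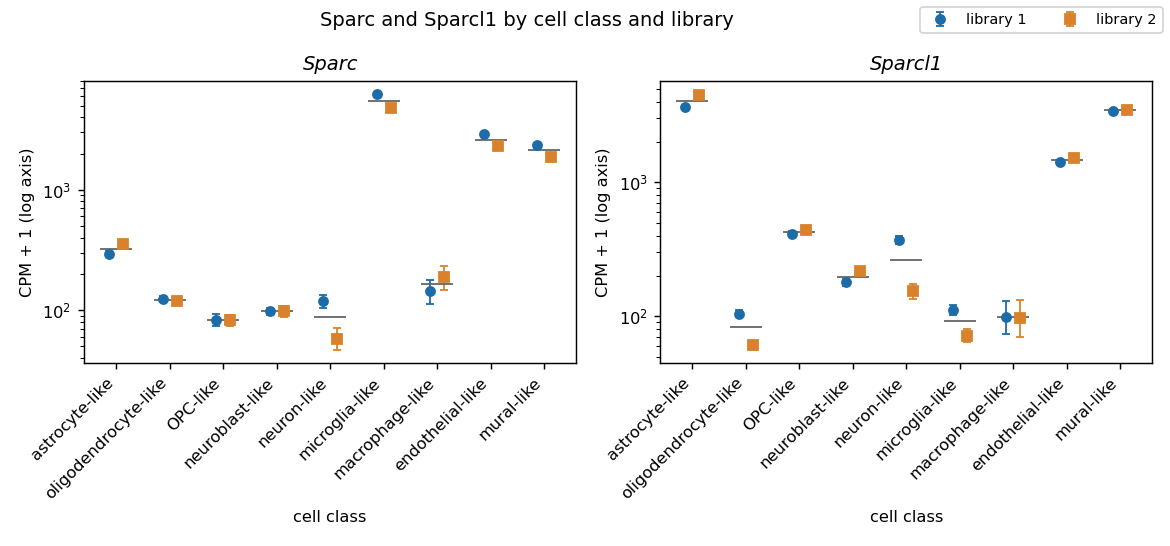
*Sparc* and *Sparcl1* by cell class, as CPM + 1 on a log axis, with 1 point per library, exact Poisson 95% intervals as bars and the mean of 2 libraries as a grey line. The genes share high levels in endothelial-like and mural-like cells, while *Sparc* is far higher in microglia-like (mean 5490 CPM) than in astrocyte-like cells (323 CPM) and *Sparcl1* the reverse (90.5 against 4059 CPM).

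The thrombospondins were sparse. *Thbs2* (ENSMUSG00000023885; chromosome 17, 14665500 to 14694235, minus strand) had 41 and 58 UMIs in all barcodes. In mural-like cells it had 19 UMIs in each library, at 9.63 CPM (5.80–15.0) and 11.2 CPM (6.72–17.4), and in the other classes at most 2.48 CPM. Mural-like cells were above endothelial-like cells by 2.26 on the log2 scale (SE 0.60, adjusted p = 0.0104). *Thbs2* passed the filter on low counts only through its mural-like sums. Its contrasts with mural-like cells therefore describe the levels and are no separate support. In the finer classes the fibroblast-like cells, 35 and 21 cells, held 13 and 11 of these UMIs, at 60.7 CPM (32.3–104) and 70.2 CPM (35–126). The mural-like cells that remained had 3.58 and 5.50 CPM, no longer called against endothelial-like cells (log2 difference 1.02, adjusted p = 0.30), where 11.2% of all genes were called higher. In astrocyte-like cells *Thbs2* had 3 and 6 UMIs, 0.69 and 1.4 CPM, and it was called lower there than in mural-like cells and in none of the other contrasts. Neuron-like cells had no *Thbs2* UMI in either library.

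*Thbs4* (ENSMUSG00000021702; chromosome 13, 92751590 to 92794818, minus strand), a thrombospondin known from astrocytes, was found in astrocyte-like and neuroblast-like cells. Astrocyte-like cells had 44.4 CPM (38.3–51.1) and 16.5 CPM (12.9–20.9), and neuroblast-like cells 22.0 CPM (18.8–25.5) and 23.4 CPM (18.6–29.1). The libraries of astrocyte-like cells thus lay on both sides of those of neuroblast-like cells, and the classes did not differ beyond the spread (log2 difference 0.31, SE 0.44, adjusted p = 0.583). In library 1 alone the log2 difference was 1.00 and in library 2 alone -0.49. All other classes had at most 2.21 CPM, and the step from neuroblast-like to microglia-like cells was 3.88 on the log2 scale (SE 0.56, adjusted p = 1.1e-05). The finer classes placed the signal of the neuroblast-like class elsewhere. Ependymal-like cells, named after the cells that line the ventricle beside the striatum, had 175 CPM (147–206) and 119 CPM (93.4–148) from 84 and 63 cells. Progenitor-like cells had 9.03 and 2.37 CPM, and the log2 difference between astrocyte-like cells and the neuroblast-like cells that remained was 4.51 (adjusted p = 1.2e-07), where 27.5% of all genes were called higher. The ependymal-like cluster was led by *Ccdc153* and *Tmem212*, genes of motile cilia, and 6 of 7 ependymal markers were raised in it, with *Gfap* also among its leading genes. In the same cluster 5 of 8 neuroblast markers were raised, so it may hold other cells as well. Which of its cells held the *Thbs4* UMIs was not tested.

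Glypicans were found in astrocyte-like and mural-like cells, in unequal measure. *Gpc4* (ENSMUSG00000031119; chromosome X, 52053021 to 52165252, minus strand) was highest in mural-like cells, with 22.3 CPM (16.2–29.9) and 27.6 CPM (20.3–36.7). Astrocyte-like cells had 8.74 CPM (6.18–12) and 12.4 CPM (9.25–16.2), lower by 1.21 on the log2 scale (SE 0.32, adjusted p = 0.0048). Neuroblast-like cells had 4.39 and 7.81 CPM, below astrocyte-like cells by a log2 difference of 0.79 (adjusted p = 0.048). No *Gpc4* UMI was found in macrophage-like cells of either library (intervals up to 6.96 and 9.14 CPM), and the other classes had at most 3.23 CPM. Astrocyte-like cells were called higher than 7 classes and lower than the mural-like class. At the finer clustering *Gpc4* was 32.7 and 25.5 CPM in fibroblast-like cells, from 7 and 4 UMIs, and 22.1 and 29.6 CPM in mural-like cells. Ependymal-like cells had 13.9 and 14.0 CPM, astrocyte-like cells 9.79 and 12.9 CPM and progenitor-like cells 5.31 and 10.7 CPM. The neuroblast-like cells that remained had 1.33 and 0 CPM.

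*Gpc6* (ENSMUSG00000058571; chromosome 14, 116925315 to 117976544, plus strand) had 78.2 CPM (70.1–86.9) and 68.1 CPM (60.5–76.3) in astrocyte-like cells. In mural-like cells it had 56.8 CPM (46.8–68.3) and 57.6 CPM (46.8–70.2), a log2 difference of 0.35 in favour of astrocyte-like cells that did not pass (SE 0.29, adjusted p = 0.337). OPC-like cells had 38.5 and 25.5 CPM, below mural-like cells (log2 difference 0.83, SE 0.30, adjusted p = 0.031). Neuron-like cells had 18.9 and 19.4 CPM and did not differ from OPC-like cells beyond the spread (adjusted p = 0.108). The other 5 classes lay between 0.18 and 14.7 CPM, and thinned to 1000 UMIs *Gpc6* was seen in 6.83% and 7.09% of astrocyte-like, 7.58% and 8.57% of mural-like and 0 of 1019 and 0 of 967 microglia-like cells. At this thinned depth a count of 0 cells allows a share of up to 0.294% and 0.310% of cells with a UMI. With all UMIs, 1 of 1117 and 6 of 1023 microglia-like cells had one.

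Between the pericyte-type and the *Acta2*-led mural clusters *Gpc6* and *Gpc4* had opposite orders, given here in plain CPM at the finer clustering. The *Vtn*-led and *Kcnj8*-led pericyte-type cluster had 140 and 167 CPM of *Gpc6* (72 and 60 UMIs) and 21.4 and 19.5 CPM of *Gpc4* (11 and 7 UMIs). The *Acta2*-led cluster had 8.10 and 18.0 CPM of *Gpc6* (5 and 10 UMIs) and 37.3 and 52.2 CPM of *Gpc4* (23 and 29 UMIs). Fibroblast-like cells had 67.0 and 30.2 CPM of *Gpc6* and 39.1 and 30.2 CPM of *Gpc4*. The *Rgs5*-led mural cluster of 63 cells, with a median of 15307 UMIs, also had *Vtn* and *Kcnj8* among its leading genes. All 8 endothelial markers were raised in it beside its mural markers. It had 42.4 and 46.6 CPM of *Gpc6* and 5.52 and 13.6 CPM of *Gpc4* (3 and 7 UMIs). It thus lay between the pericyte-type and the *Acta2*-led cluster for *Gpc6* and below both for *Gpc4*. These differences between clusters were not tested.

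*Chrdl1* (ENSMUSG00000031283; chromosome X, 143285674 to 143394262, minus strand) was the only member called higher in astrocyte-like cells than in all 8 other classes. It had 38.2 CPM (32.6–44.4) and 36.4 CPM (30.9–42.5), a mean of 37.3 ± 1.28 CPM (SD, n = 2 libraries), from 166 and 156 UMIs. The next class by mean was macrophage-like cells, which rested on 0 and 2 UMIs, and the ratio to it was 17.4 (exact binomial 95% interval 4.78–144, from the UMIs of both libraries). The fitted log2 difference was 3.84 (SE 0.89, adjusted p = 0.0021), and it did not pass with cells thinned to 1000 UMIs (2.04, adjusted p = 0.141). OPC-like cells had 1.79 and 3.06 CPM from 7 and 13 UMIs, a log2 difference of 3.68 (SE 0.49, adjusted p = 1.1e-05). No neighbouring pair of classes below astrocyte-like cells differed beyond the spread.

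**Figure D3:**
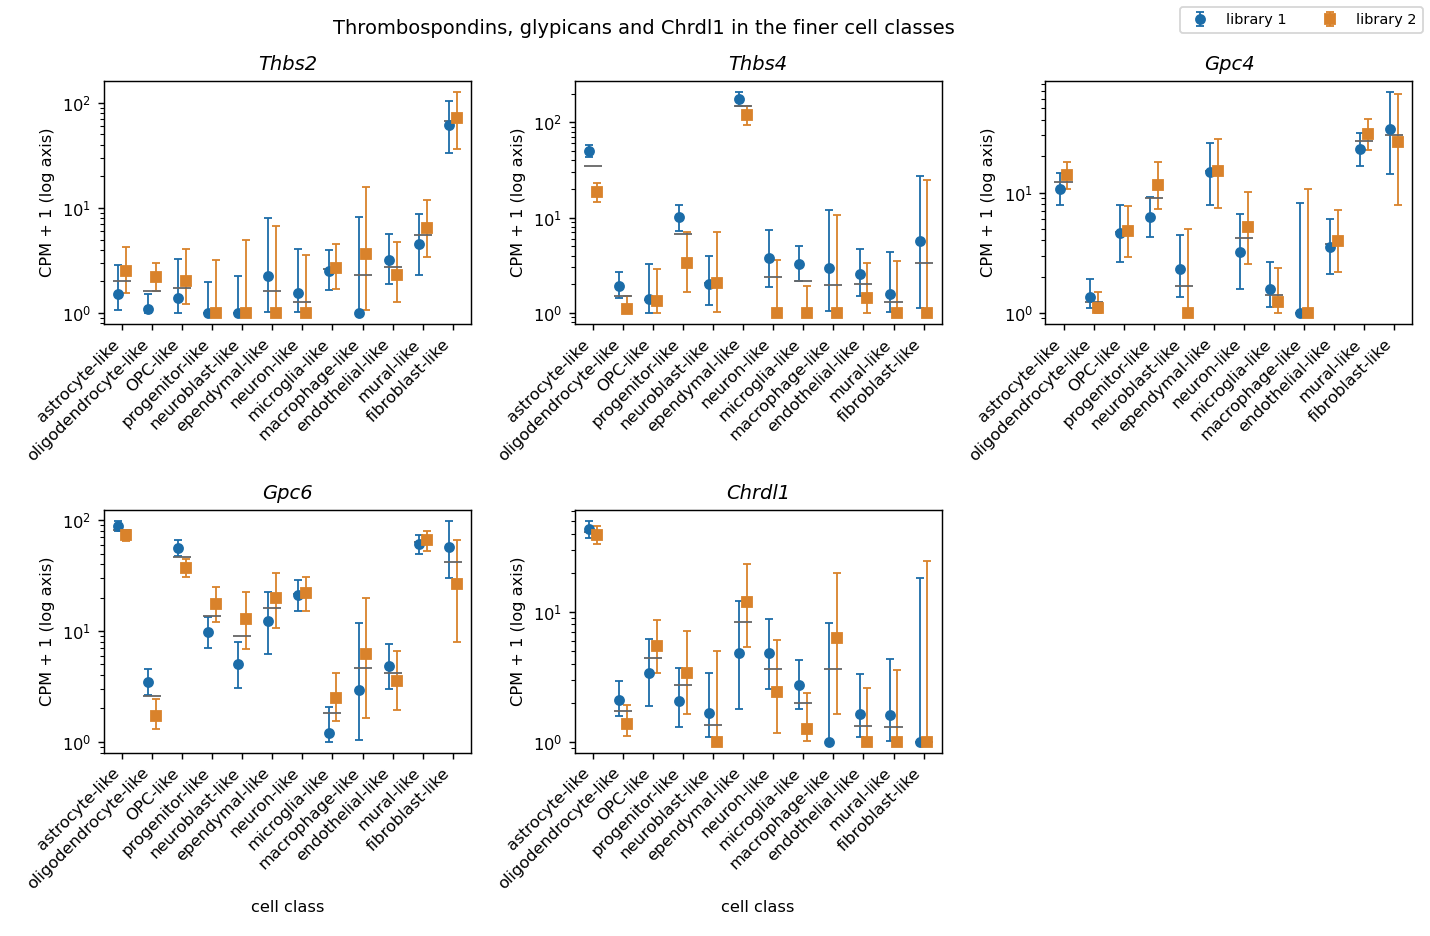
Thrombospondins, glypicans and *Chrdl1* in the 12 finer cell classes, as CPM + 1 on a log axis, with 1 point per library, exact Poisson 95% intervals as bars and the mean of 2 libraries as a grey line. *Thbs2* peaks in fibroblast-like cells (60.7 and 70.2 CPM) and *Thbs4* in ependymal-like cells (175 and 119 CPM), while *Chrdl1* peaks in astrocyte-like cells (42.5 and 38.4 CPM).

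*Megf10* (ENSMUSG00000024593; chromosome 18, 57133090 to 57297467, plus strand), the engulfment receptor related to Draper of flies, was found at like levels in astrocyte-like and oligodendrocyte-like cells. Astrocyte-like cells had 59.6 CPM (52.5–67.3) and 81.8 CPM (73.5–90.8), and oligodendrocyte-like cells 57.6 CPM (52.9–62.5) and 73.8 CPM (68.7–79.3). The log2 difference was 0.10 (SE 0.20, adjusted p = 0.692). OPC-like cells had 11.2 and 11.3 CPM, lower than oligodendrocyte-like cells by 2.49 on the log2 scale (SE 0.24, adjusted p = 2.2e-07), and the other 6 classes had at most 7.87 CPM. TMM scaling lowers the log2 difference of astrocyte-like over oligodendrocyte-like cells by 0.49 for every gene, and with library sizes alone *Megf10* was higher in astrocyte-like cells by 0.59 (adjusted p = 0.020). The level in oligodendrocyte-like cells was 10.2% and 19.3% of the summed level of the astrocyte markers there, against 0.31% and 0.39% in astrocyte-like cells, and the part of free RNA in this level was not tested.

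Among oligodendrocyte-lineage cells, *Megf10* was uneven, given in plain CPM at the finer clustering. The cluster led by *Klk6*, *Anln* and *Car2*, genes of mature oligodendrocytes, had 49.8 and 62.0 CPM. The cluster with high mitochondrial content, 21.8% of its pooled UMIs, had 56.0 and 53.4 CPM. The cluster with *Gpr17*, *Nfasc* and *Fyn* among its leading genes, of which *Gpr17* marks cells on the way from precursor to oligodendrocyte, had 7.57 and 16.1 CPM at a median of 19600 UMIs per cell. No oligodendrocyte marker and 1 marker of another class stood among its 10 leading genes. Thinned to 1000 UMIs, *Megf10* was seen in 5.48% and 7.54% of astrocyte-like, 5.41% and 5.52% of oligodendrocyte-like and 0.098% and 0.21% of microglia-like cells.

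*Mertk* (ENSMUSG00000014361; chromosome 2, 128698956 to 128802894, plus strand), a receptor tyrosine kinase of the TAM family, was high in microglia-like and in astrocyte-like cells. Microglia-like cells had 444 CPM (426–462) and 537 CPM (516–559), and astrocyte-like cells 444 CPM (425–465) and 319 CPM (302–336). The classes were alike in library 1 and apart in library 2, with log2 differences of -0.0021 and 0.75 for microglia-like over astrocyte-like cells in each library alone. Over both libraries the difference was 0.42 (SE 0.31, adjusted p = 0.268), and with library sizes alone the fitted difference was 0.021, although the mean CPM was then higher in astrocyte-like cells (459 and 325 against 339 and 426 CPM). Macrophage-like cells had 170 and 107 CPM, below astrocyte-like cells (log2 difference 1.46, SE 0.38, adjusted p = 0.0044). Mural-like cells had 89.2 and 78.7 CPM and endothelial-like cells 44.1 and 54.5 CPM, with no step between neighbours in this stretch past the test. Oligodendrocyte-like cells were lowest, with 7.56 and 2.06 CPM. In astrocyte-like cells the *Mertk* level was 158% and 194% of the summed microglia markers, against 1.25% and 1.43% in microglia-like cells, and the part of microglial RNA in this level was not tested. Thinned to 1000 UMIs, a *Mertk* UMI was found in 31.2% and 25.9% of astrocyte-like, 26.6% and 33.3% of microglia-like and 0.75% and 0.0% of oligodendrocyte-like cells, where 0 of 1086 cells allows a share of up to 0.276%.

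*Gas6* (ENSMUSG00000031451; chromosome 8, 13465374 to 13494490, minus strand), the ligand of MERTK, was highest in macrophage-like cells, at 900 CPM (821–985) and 612 CPM (538–694). Microglia-like cells had 199 CPM (187–211) and 177 CPM (165–190), lower by 2.01 on the log2 scale (SE 0.18, adjusted p = 5.2e-07). Endothelial-like cells, with 177 and 165 CPM, did not differ from microglia-like cells beyond the spread (adjusted p = 0.576). Mural-like cells had 104 and 95.8 CPM and astrocyte-like cells 53.6 CPM (46.9–60.9) and 52.2 CPM (45.6–59.5), a step of 0.91 on the log2 scale (SE 0.19, adjusted p = 6.4e-04). Astrocyte-like cells were called lower than 4 classes, all immune or vascular, and higher than the OPC-like, neuroblast-like and oligodendrocyte-like classes. Oligodendrocyte-like cells were lowest, with 11.4 and 11.7 CPM. In plain CPM at the finer clustering, *Gas6* was 112 and 121 CPM in the *Acta2*-led mural cluster and 23.3 and 25.1 CPM in the *Vtn*-led one. The *Rgs5*-led mural cluster of 63 cells, which had both mural and endothelial markers raised, held 157 and 134 CPM. It too had *Vtn* and *Kcnj8* among its leading genes, so *Gas6* was not low in every cluster led by such genes. Fibroblast-like cells held 223 and 136 CPM, and these differences were not tested. *Mertk* and *Gas6* each overlap an annotated gene on the opposite strand that is also counted, *Gm14011* and *Tmem255b*, as *Sparcl1* does with *Gm26703*. Whether the counting used strand is not given in the sources used here.

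**Figure D4:**
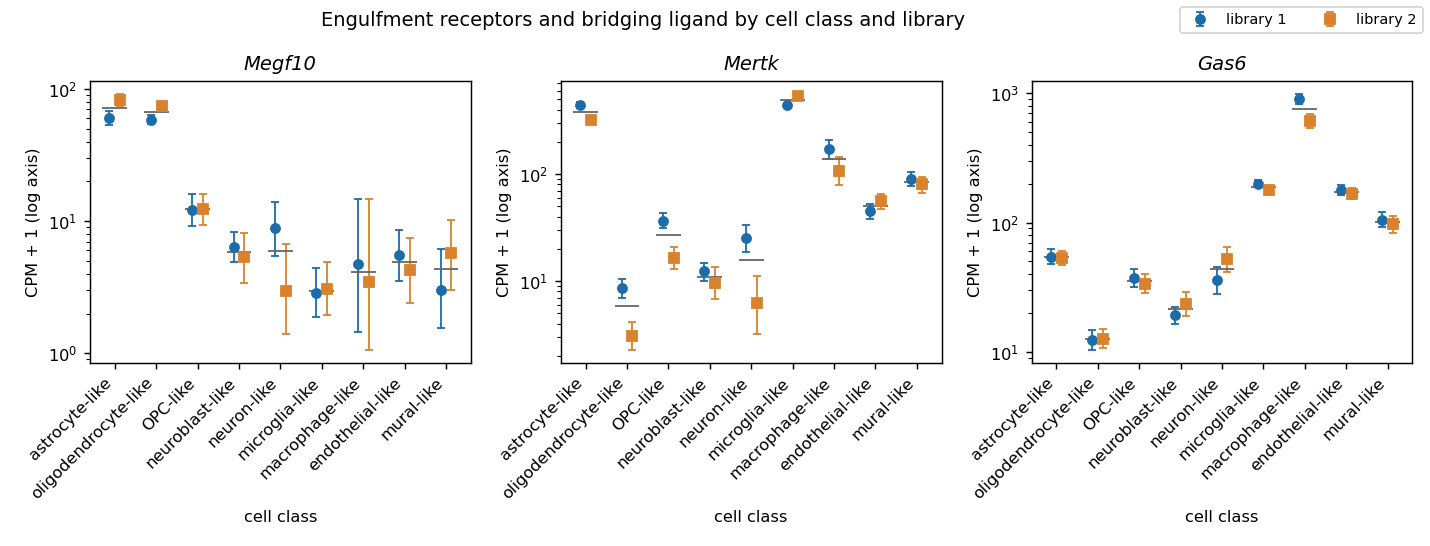
*Megf10*, *Mertk* and *Gas6* by cell class, as CPM + 1 on a log axis, with 1 point per library, exact Poisson 95% intervals as bars and the mean of 2 libraries as a grey line. The receptors are high in astrocyte-like cells (means of 70.7 and 382 CPM), and *Gas6* is highest in macrophage-like cells (756 CPM). On this TMM scale *Megf10* is at a like level in oligodendrocyte-like cells (65.7 CPM). Without TMM factors it is 61.6 and 83.2 CPM in astrocyte-like and 42.5 and 53.4 CPM in oligodendrocyte-like cells.

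Other genes of the same pathways were taken as 10 lists of 58 genes and tested in astrocyte-like cells against the mean of the other 8 classes. This mean was taken over log levels with equal weight per class, so 1 class with a very high level raises it little. Of 56 genes tested, 28 were higher, 16 lower and 12 neither, where 26.7% of all genes tested were higher and 26.4% lower. Some of the 12 had few or no UMIs in astrocyte-like cells and very large SEs, up to 5385. For these the test could not call a difference. The median log2 difference over all genes tested was -0.17. *Smoc2* and *Comp* were too low to be tested. Of the 28 higher genes, 6 had their highest mean level in astrocyte-like cells and 22 in another class. The median log2 differences of the lists were -0.48 for the SPARC family, 0.99 for the thrombospondin family, -0.51 for thrombospondin receptors, 0.82 for the glypican family and 0.40 for neuronal partners. They were 0.23 for BMP ligands and receptors, -0.24 for other TAM genes, 0.0047 for other engulfment receptors, 0.17 for adaptors and 2.07 for secreted factors. On the same contrast 7 of the 10 members were higher, *Gas6* was lower by 0.48 (adjusted p = 0.011), and *Sparc* (-0.21, adjusted p = 0.327) and *Thbs2* (-0.016, adjusted p = 0.510) were not called. By mean level *Sparc* was nevertheless at 323 CPM in astrocyte-like against 5490 CPM in microglia-like cells.

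Among the neuronal partners of hevin and the glypicans, 5 of 8 were higher in astrocyte-like cells and 1 was lower. *Ptprf*, a receptor phosphatase, had a log2 difference of 2.24 (SE 0.19) and its highest mean level in astrocyte-like cells. *Nptxr*, the neuronal pentraxin receptor, was lower by 1.06 (adjusted p = 0.045). In the glypican family 2 of 4 were higher and none was lower, among them *Gpc5*, with 312 and 368 CPM in astrocyte-like cells and a log2 difference of 5.10 (SE 0.14). Of the other SPARC family genes 2 of 5 tested were higher, with *Fstl1* at 2.41 and *Smoc1* at 1.29, and *Spock2* was lower by 1.22. *Thbs3*, of the thrombospondin family, was higher by 2.35 (SE 0.18). Of the thrombospondin receptors, 2 of 5 were higher and 1 lower. *Lrp1* was higher by 1.13 and *Itgb1* was lower by 1.75. *Cacna2d1*, the α2δ-1 gene, named here for its role after its values were seen, was highest in neuron-like cells (173 CPM) against 14.9 and 11.4 CPM in astrocyte-like cells (log2 difference -0.51, adjusted p = 0.130).

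Of the BMP ligands and receptors, 4 of 8 were higher and 3 lower. *Bmpr1b*, a type I BMP receptor, had 89.0 and 100 CPM in astrocyte-like cells and a log2 difference of 5.23 (SE 0.23, adjusted p = 8.0e-12), and *Bmp7* one of 2.66. *Bmp2* was lower by 2.82 and *Bmp4* by 1.89. Of the other TAM genes, the receptor *Axl* was higher by 2.38 (SE 0.18) and the ligand *Pros1* was lower by 0.52 (adjusted p = 0.023), with 1 of 3 not called. Among other engulfment receptors and bridges, 5 of 10 were higher and 4 lower. *Mfge8*, which bridges phosphatidylserine to integrins, had 1575 and 1505 CPM in astrocyte-like cells and a log2 difference of 4.07 (SE 0.15), and *Adgrb1*, a phosphatidylserine receptor, one of 2.01. The scavenger receptor *Stab1* was lower by 2.80 and *Pear1*, a relative of *Megf10*, by 1.66 (adjusted p = 0.044). The engulfment adaptors split evenly, with 4 of 8 higher and 4 lower. *Gulp1*, an adaptor of MEGF10-type receptors, was higher by 2.68 (SE 0.25) and *Elmo2* by 1.52, while *Elmo1* was lower by 3.15 and *Rac1* by 0.96. Of the other secreted factors 3 of 5 were higher, with *Il33* at 2.82 and *Tgfb2* at 2.12, and *Tgfb1* was lower by 2.43.

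Genes whose levels followed each member most closely over the 18 sums of a library and class were taken among 7968 genes by Pearson's r of log2(CPM + 10). These values describe the sums, which share libraries and depth. *Sparcl1* was nearest to *Nr1d1* (r = 0.98), *Timp3* and *Dag1*, and *Sparc* to *Extl3* (r = 0.95), *Pfkl* and *Ecscr*. *Chrdl1* was nearest to *Cyp4f15*, *Cldn10* and *Etnppl*, each at r = 0.97. *Thbs4* was nearest to *Gfap* (r = 0.96), *Pax6* and *Elovl2*, and *Thbs2* to *Des* (r = 0.96), *Ogn* and *Mrvi1*. *Gpc4* was nearest to *Prelp* (r = 0.95), *Arhgap42* and *Rarres2*, and *Gpc6* to *Atp1b2* (r = 0.95), *Dmd* and *Sdc2*. *Megf10* was nearest to *Folh1* (r = 0.98), *Hepacam* and *Cdh19*, *Mertk* to *Cst3* (r = 0.92), *Cyp4v3* and *Il11ra1*, and *Gas6* to *Blvrb* (r = 0.97), *Rab11fip5* and *Tap1*. Among the members themselves the closest pairs were *Sparcl1* with *Gpc4* and *Gpc4* with *Gpc6* (each r = 0.79), followed by *Sparcl1* with *Gpc6* (r = 0.77). The receptors *Megf10* and *Mertk* had r = -0.045.

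Clustered by themselves, the astrocyte-like cells gave 5 subclusters, in which the members are described in plain CPM with no test. The 3 large ones held 638 and 368, 270 and 355, and 380 and 185 cells at medians of 1466, 8160 and 1349 UMIs. Another, of 17 and 63 cells, was led by *Igsf1* and *Agt*, of which *Agt* encodes angiotensinogen, and the last, of 7 and 7 cells, was led by microglial genes such as *Ctss* and *C1qa*. In the *Igsf1*-led and *Agt*-led subcluster *Sparc* reached 1082 and 1823 CPM against 185 to 338 CPM in the 3 large ones. *Sparcl1* was also highest there, at 5411 and 7074 CPM against 3209 to 5100 CPM, and no *Chrdl1* UMI was found among its cells in either library. The intervals of these counts of 0 reach 58.7 and 10.2 CPM, against *Chrdl1* levels of 28.5 to 47.5 CPM in the 3 large ones. In library 1 the count of 0 therefore does not set this subcluster apart. *Crym* was at 47.7 and 11.1 CPM in the *Agt*-led subcluster, from 3 and 4 UMIs. The largest subcluster had *Mag* and *Mal*, genes of myelin, among its leading genes. Mitochondrial UMIs were 14.6% of its pooled UMIs, against 6.14% in the deepest and 10.3% in the third. The part of myelin and mitochondrial RNA in its levels was not tested. The largest subcluster was highest of the 3 for *Thbs4* (120 and 50.7 CPM against 2.91 to 21.1 CPM in the other 2 large ones) and for *Gpc6* (126 and 111 CPM against 28.1 to 73.0 CPM). *Mertk* was 604 and 385 CPM in the largest, 476 and 359 CPM in the deepest and 123 and 122 CPM in the third. Leading genes of the third were *Hpca*, *Kif5a* and *Tac1*, known from neurons, and also the oligodendrocyte markers *Cldn11* and *Mal*.

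The study asks how astrocytes that express *Crym*, the gene of μ-crystallin, differ from those that do not, so the members were compared between *Crym*+ and *Crym*- astrocyte-like cells. There were 504 and 435 *Crym*+ cells and 808 and 543 *Crym*- cells, with medians of 2422.5 and 5218 UMIs against 1472 and 1971, so *Crym*+ cells were the deeper ones. Of the 10 members 7 were seen in 10% or more of either group's cells and tested. None was higher in *Crym*+ cells and 3 were lower, where 3.48% of 6057 genes were higher and 5.07% lower. *Sparc* was 326 and 567 CPM in *Crym*- and 282 and 193 CPM in *Crym*+ cells, lower by 0.90 on the log2 scale (SE 0.15, adjusted p = 1.2e-04). The SEs here draw on dispersion across genes and are not the spread of a gene's own differences between libraries. For *Sparc* DESeq2 gave an SE of 0.63. *Chrdl1* was 46.8 and 46.1 CPM in *Crym*- and 33.1 and 29.5 CPM in *Crym*+ cells, lower by 0.57 (SE 0.17, adjusted p = 0.031). *Megf10* was 70.2 and 95.4 CPM in *Crym*- and 54.2 and 72.9 CPM in *Crym*+ cells, lower by 0.39 (SE 0.13, adjusted p = 0.0495).

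Each of these calls was lost under some alternatives. *Sparc* differed mostly in library 2. Without the *Agt*-led subcluster, in which *Crym* had 3 and 4 UMIs, its log2 difference was -0.39 (adjusted p = 0.109), and within the deepest subcluster alone it was -0.061 (adjusted p = 0.883). *Chrdl1*, detected in 10.01% of the cells at most, was lower by 1.03 within the deepest subcluster (adjusted p = 9.0e-04) and by 0.73 without the *Agt*-led one (adjusted p = 0.047). It was not called without the subcluster led by microglial genes (-0.58, adjusted p = 0.063) or with no filter on low counts (-0.50, adjusted p = 0.078). *Megf10* was -0.17 within the deepest subcluster (adjusted p = 0.740), -0.20 in cells under 20% mitochondrial UMIs (adjusted p = 0.358), -0.35 without the *Agt*-led subcluster (adjusted p = 0.117) and -0.38 with library sizes alone (adjusted p = 0.070). Without the library as a block no member was called, with 2 at an unadjusted p under 0.05, and by DESeq2 none was called and none had an unadjusted p under 0.05. *Mertk* had 466 and 285 CPM in *Crym*- and 457 and 353 CPM in *Crym*+ cells (log2 difference 0.12, adjusted p = 0.489), *Sparcl1* a log2 difference of -0.11 (adjusted p = 0.423), *Gpc6* of 0.076 and *Gas6* of -0.11. *Thbs4*, below the detection filter, was 61.7 and 27.9 CPM in *Crym*- and 31.7 and 8.00 CPM in *Crym*+ cells. With no filter on low counts *Thbs4* was lower by 1.10 (SE 0.19, adjusted p = 1.1e-06). In this unfiltered fit the SE of *Sparc*, which differed mostly in library 2, was 0.097, against 0.15 in the reported fit. The p-value of *Thbs4* therefore does not measure the spread of its own differences between libraries. In the largest subcluster, where *Thbs4* was highest, *Crym* was 316 and 485 CPM in plain CPM. In the other 2 large ones *Crym* was 1435 to 1792 CPM. *Thbs4* was not tested in the alternatives that removed or selected subclusters.

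**Figure D5:**
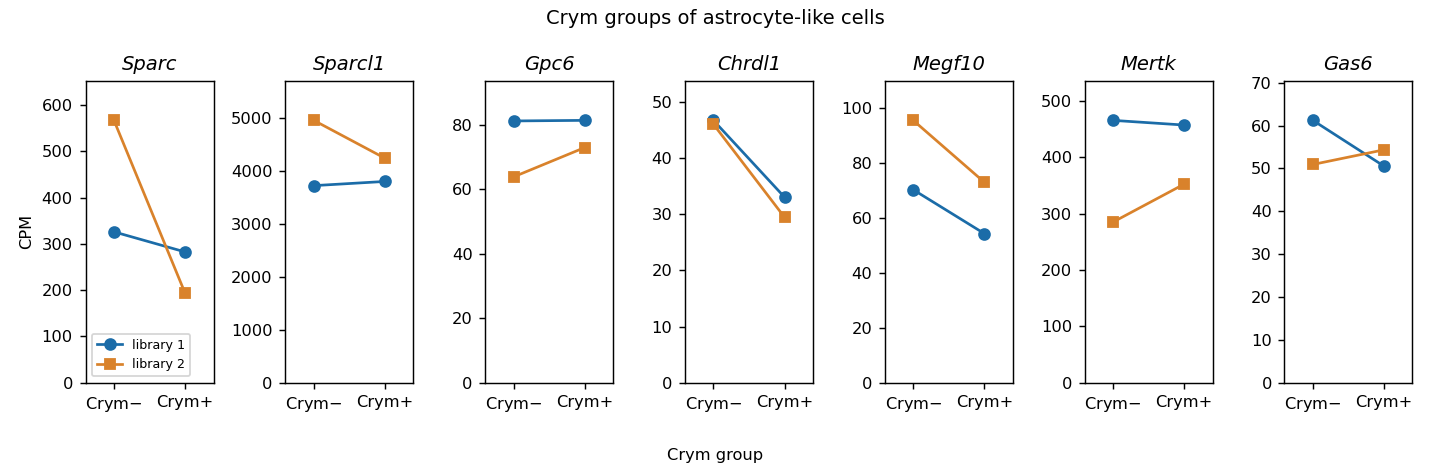
Level of the 7 tested genes in *Crym*- and *Crym*+ astrocyte-like cells, in CPM on axes that start at 0, with 1 line per library. *Chrdl1* and *Megf10* fall from *Crym*- to *Crym*+ in both libraries, while *Sparc* falls from 326 to 282 CPM in library 1 and from 567 to 193 CPM in library 2.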

How the data were processed

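Each library was made on the 10x Genomics platform with kits v2 and v3, which are not assigned to libraries in the sources used here. The authors deposited raw UMI counts per gene and cell, made with CellRanger on mm10 (4.0 per the labels, 4.0.0 in the matrix headers, another version in the paper). Counts were read with python 3.11.15. Cells with at least 300 genes were kept and doublets removed with Scrublet in scanpy 1.11.5 (expected rate 6%; 96 and 159 cells, 1.39% and 2.96%). Seurat 5.3.0 in R 4.3.3 integrated the libraries by canonical correlation analysis (2000 variable genes, 30 principal components) and clustered them at resolution 0.08, or 0.32 for finer classes. A cluster took the class with most markers among its leading genes, with at least 3 markers raised 2-fold (10 CPM added to both sides) and 1 among the 50 leading genes. Both cut-offs were set with the counts in view, and the rebuilt classes may differ from the study's. The members and the related lists were chosen with earlier results of these data known.

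Counts were summed per library and class (at least 20 cells in each library) and tested in edgeR 4.0.16 (TMM scaling, filterByExpr, a prior count of 2, quasi-likelihood test), over 18 sums and 15534 genes. The library was a block by design, since all classes of a library come from 1 suspension. P-values were adjusted by Benjamini and Hochberg over all genes of a contrast, at a threshold of 0.05. *Crym*+ cells had a natural log value (1 plus UMIs per 10000) above 0.25. This fit of 4 sums has 1 residual degree of freedom, and its p-values and SEs depend on dispersion estimated across genes. Each edgeR SE is the log2 difference over the square root of the test's F statistic. All 10 members were named, with at most 2 rises and 2 falls of each related list and the 3 genes nearest to each member. Positions are from a GRCm38 annotation, the build also called mm10. Scripts were tested on simulated data. The alternatives were DESeq2 1.42.0, library sizes alone, no filter on low counts, no block, doublets kept, at least 500 genes, under 20% mitochondrial UMIs, thinning to 1000 UMIs, at least 1 *Crym* UMI and each library left out, and 3 added after the data were seen, which removed or selected astrocyte subclusters. The setting of at least 1 *Crym* UMI gave the same values as the reported threshold for every member tested, so it is no separate check. Protein and promoter sequences were not used here. The values of 1 gene of the related lists are not reported here.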

Additional observations from a re-analysis of the deposited data

Results flagged for a closer look

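Erythroid-like cells entered no comparison, since library 2 held 11 of them and library 1 held 86. Members were nevertheless counted in those of library 1, above the 3 UMIs that a count of 0 allows. There were 47 UMIs of *Sparc* (65.7 CPM without TMM scaling, interval 48.3–87.4), 77 of *Sparcl1* (108 CPM, 85.0–135), 4 of *Gpc6*, 5 of *Mertk* and 7 of *Gas6*. In library 2 the 11 cells held 52 UMIs of *Sparcl1* (707 CPM, 528–927), where 3 UMIs are 40.8 CPM, and 3 of *Sparc*. On the same scale *Sparcl1* was 84.4 and 56.1 CPM in microglia-like cells, and the part of free RNA in these counts was not tested. No UMI of *Thbs2*, *Gpc4*, *Chrdl1* or *Megf10* was found in the erythroid-like cells of either library.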

How the results depend on the processing

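Members called higher in astrocyte-like cells numbered 51 to 61 of 80 tests under 9 alternatives (58 as reported), and members called lower 7 to 9 (9 as reported). *Thbs2* against mural-like cells is among the 9 reported. The highest class differed from the next for 4 to 6 members (5 as reported), except for 3 with cells thinned to 1000 UMIs, where 9 related genes rather than 16 were lower. Of the 3 members called between *Crym*+ and *Crym*- cells, 0 were called without the library as a replicate block (2 at an unadjusted p under 0.05) and 0 by DESeq2 (0 at an unadjusted p under 0.05). There was 1 call with doublets kept, 1 with cells under 20% mitochondrial UMIs and 1 after thinning, each time *Sparc*. *Chrdl1* fell below the detection filter in these 3 settings and *Megf10* after thinning, so they were not tested there. In alternatives chosen after seeing the data there was 1 without the *Agt*-led subcluster, 1 without the subcluster led by microglial genes and 1 in the deepest subcluster alone. The cause was not tested. The library block comes from the design, and in the class contrasts its removal left 57 higher and 9 lower calls.

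Some differences that were not called changed sign. *Thbs4* in astrocyte-like over neuroblast-like cells became -0.0030 by DESeq2 and *Gpc6* in astrocyte-like over mural-like cells -0.060 after thinning. Between *Crym* groups, *Sparcl1* became 0.032 under 20% mitochondrial UMIs, *Gpc6* -0.015 without the *Agt*-led subcluster, *Mertk* -0.19 after thinning and *Gas6* 0.034 in the deepest subcluster. With 1 library left out no test remains. *Thbs4* was then highest in neuroblast-like cells (library 2) and *Mertk* in astrocyte-like cells (library 1, and by mean CPM with library sizes alone). By share of cells with a UMI, *Sparcl1*, *Gpc6* and *Megf10* were highest in another class, and after thinning *Gpc6* was. Counts under 20 UMIs, as for *Thbs2* in most classes, limit what can be detected.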
